A study of Mus musculus with 9 samples.

Results

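Collagens and the enzymes that process them were measured in mouse glioma stem cells and in 2 kinds of neural stem cells (NSC) as 48 genes among 18193 on Affymetrix mouse arrays. Of these 48, 42 encode collagen chains and were taken by their gene symbol. The other 6, Serpinh1, Plod1, Plod2, Plod3, Lox and Loxl1, were added by name. Each gene was represented by its brightest probe set among those that carry 1 gene symbol. Loxl2, Col6a6 and Col28a1 were not counted, because no probe set carried their symbol alone in the annotation used.

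There were 9 arrays, 3 per group. The glioma stem cells came as cultures from the optic nerve, from optic gliomas that Nf1+/-GFAP CKO mice carried at 3 months of age. In that name GFAP is the astrocyte filament gene, and the labels spell out no more. The Nf1-null NSC were cells from the third ventricle zone (TVZ) of Nf1flox/flox pups at postnatal day 1 that had received Cre virus, and Cre deletes floxed sequence. The wild-type NSC were cells of the same origin and floxed genotype that had received a LacZ virus as control. All mice were C57BL/6, and all cells grew as cultures in low-attachment dishes with FGF and EGF. Tumour origin, tissue, age, genotype and virus treatment all differ between the glioma stem cells and the NSC at once, and cannot be told apart. Separate cultures are stated for the NSC and not for the glioma stem cells, so the p-values measure only the spread between these samples, which may be technical.

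Collagen chains are made in the endoplasmic reticulum, where prolines and lysines are hydroxylated before chains wind into a triple helix. The chaperone Hsp47, encoded by Serpinh1, binds the folded procollagen and escorts it towards secretion. Outside the cell the ends of fibril-forming collagens are clipped off, and lysyl oxidases crosslink the assembled molecules. In the brain, interstitial fibrillar collagen is scarce outside vessels and meninges, while basement membrane type IV collagen lines vessels and the surface beneath the meninges.

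Nf1, the targeted gene, gave 622.6, 600.1 and 548.9 signal units in glioma stem cells, 430.3, 645.8 and 577.0 in Nf1-null NSC, against 1139.5, 919.5 and 999.9 in wild-type NSC, with every glioma stem cell and Nf1-null array below every wild-type array. Its difference between Nf1-null and wild-type NSC was -0.90 (limma, adjusted p = 0.123), and whether its probe set lies in the deleted part was not examined. Across the 9097 genes at or above the median gene, the correlation between glioma stem cell arrays 2 and 3 was 0.989, whereas array 1 gave 0.950 with array 2 and 0.944 with array 3. Within Nf1-null NSC the correlations were 0.938 to 0.954, and within wild-type NSC 0.951 to 0.964. Array 1 was thus about as far from the others as NSC arrays were, and arrays 2 and 3 were unusually alike. Results that change without array 1 are given both ways, but then the spread in glioma stem cells rests on that close pair. With array 1 left out, 2 of the 48 genes rose and 3 fell against Nf1-null NSC, where 3.96% of all genes passed. Against wild-type NSC 5 rose and 4 fell, where 9.65% of all genes passed. Of 9 neural stem and progenitor cell markers, Fabp7, Vim, Sox2 and Olig2 were at 21358.3 or more on all 9 arrays. Gfap, on the same list, had its lowest differences, of -2.92 against Nf1-null NSC and -4.57 against wild-type NSC, and passed in neither. Glioma stem cells did not overlap wild-type NSC for 7 of the 9 markers, of which 3 were higher and 4 lower. Over all genes 34.8% did not overlap, and 47.3% of those at or above the median gene. Against Nf1-null NSC 1 marker was higher and 1 lower without overlap, beside 21.9% of all genes, and 0 passed. Msi1 and Slc1a3 fell against wild-type NSC, with differences of -1.12 (adjusted p = 0.0337) and -1.14 (adjusted p = 0.0472), where 9.06% of all genes passed. Signals are deposited intensity values, and differences were taken on log2(signal + 1). A gene was said to rise or fall when its limma p-value, adjusted over all 18193 genes by Benjamini-Hochberg, was under 0.05.

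In glioma stem cells the collagen chaperone Serpinh1 was 38.7-fold lower than in Nf1-null NSC and 24.4-fold lower than in wild-type NSC. Col9a3 and Loxl1 also fell in both comparisons, Col5a2 fell against Nf1-null NSC, and Col4a5 fell against wild-type NSC. Col5a1 and Col16a1 rose against wild-type NSC. Between Nf1-null and wild-type NSC no collagen or processing gene passed the threshold. Chains of the common interstitial collagens I, III and VI were dim, that is below the median gene, in their mean over all arrays.

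Against Nf1-null NSC, 0 of the 48 genes rose and 4 fell (8.33%). Over all genes 1.75% passed the threshold, 0.671% as higher and 1.08% as lower, and at an unadjusted p under 0.05 there were 15 of the 48, against 16.5% of all genes. Against wild-type NSC, 2 rose and 4 fell, which is 12.5% of the 48 against 9.06% of all genes. Over all genes 3.46% passed as higher and 5.6% as lower, so the share among the collagen genes was near that of the whole array. Of the 48, 14 were at or above the median gene and 34 below it, where 1 array weighs more. The median SD in glioma stem cells was 0.35 for the brighter genes and 0.64 for the dimmer ones (log2, n = 3). Of the 14 brighter genes 21.4% passed against Nf1-null NSC and 35.7% against wild-type NSC. Over all genes at or above the median gene 2.09% and 12.4% passed. The median gene was at 9.27 (log2), and a gene was placed by its mean over all 9 arrays. Serpinh1 and Col9a3 had means of 8.43 and 7.58 in glioma stem cells, and counted as brighter only through their NSC signals. The shares of the brighter genes are therefore not independent of the differences counted. Of the 34 dimmer genes 2.94% passed in each of these comparisons, beside 1.75% and 9.06% of all genes, bright and dim together. The share among all genes below the median gene was not taken. The median difference of the 48 genes was -0.23 against Nf1-null NSC and -0.47 against wild-type NSC, where the medians over all genes were -0.04 and -0.09. Both comparisons share the glioma stem cell arrays, so their directions are not independent of each other.

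**Figure D1:**
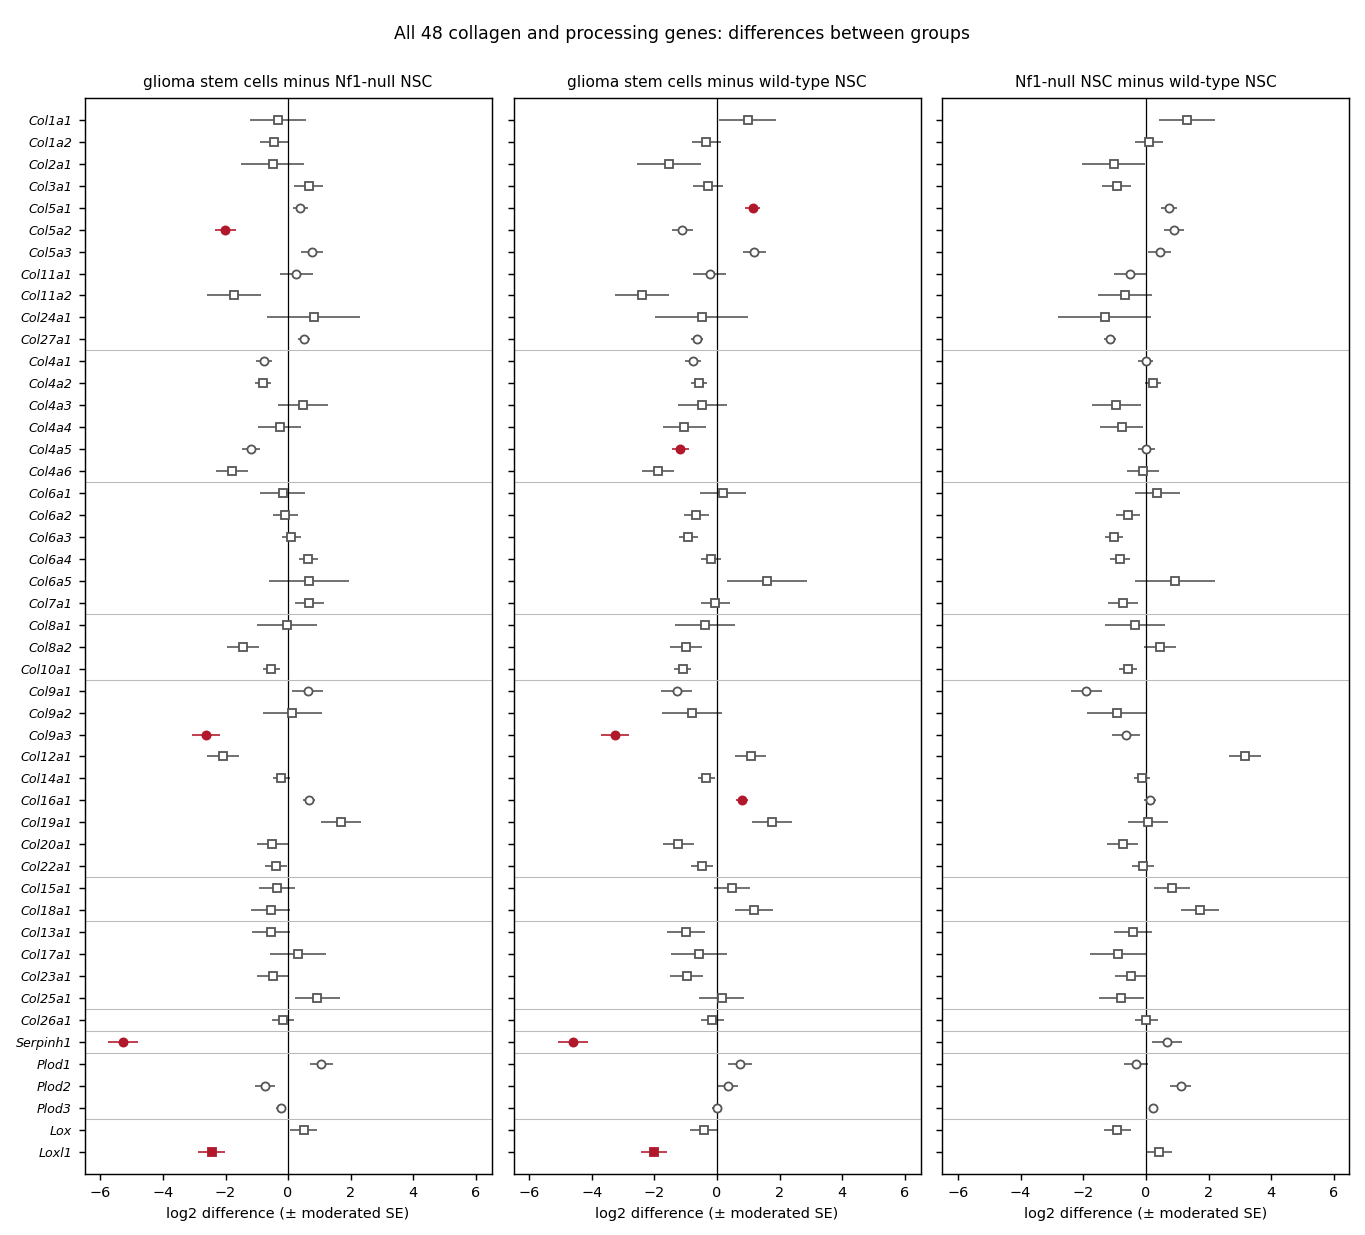
Differences of all 48 genes in the 3 comparisons, as log2 of (signal + 1) with the moderated standard error, ordered by role. Filled red symbols passed an adjusted p of 0.05, circles mark genes at or above the median gene and squares genes below it. Serpinh1, at -5.27 and -4.61, lies farthest left in both comparisons of glioma stem cells.

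Serpinh1 encodes Hsp47, the collagen-specific chaperone of the endoplasmic reticulum. Its signal was 560.9, 187.7 and 382.3 in glioma stem cells, against 9033.4, 23084.4 and 11250.0 in Nf1-null NSC as well as 7536.6, 10273.1 and 7621.5 in wild-type NSC. Every glioma stem cell array was far below every NSC array, while the NSC groups overlapped. The difference was -5.27 against Nf1-null NSC (SE 0.47, adjusted p = 0.00701) and -4.61 against wild-type NSC (SE 0.47, adjusted p = 0.00674). Nf1-null and wild-type NSC differed by 0.66, with an adjusted p of 0.522. The other probe set of Serpinh1 gave -5.59 and -4.82, so both probe sets of the gene moved alike. The call against wild-type NSC held without any 1 of the 9 arrays. The call against Nf1-null NSC did so too, and was lost only when the fit was limited to the 6 arrays of these groups (adjusted p = 0.0527).

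The bases upstream of Serpinh1 are shown because it had the largest difference of the 48 genes. They come from RefSeq promoter windows on GRCm38.p6, of 250 bases before to 50 after each start, in which 36 of the 48 genes had an entry, and lie at chr7:99353240-99353489 on the minus strand. Only bases before the outermost annotated start are printed, 5′ to 3′. Capitals mark a GC box, searched as GGGCGG on both strands.
Serpinh1: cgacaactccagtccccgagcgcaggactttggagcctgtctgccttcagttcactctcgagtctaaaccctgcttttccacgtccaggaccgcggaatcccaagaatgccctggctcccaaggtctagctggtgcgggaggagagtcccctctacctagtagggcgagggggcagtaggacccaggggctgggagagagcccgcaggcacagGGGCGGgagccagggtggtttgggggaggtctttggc
Among the 32851 windows of that table, 35.7% held GGGCGG, against 23 of the 36 collagen and processing genes (63.9%). The background counts windows, whereas the 36 genes, with 39 windows, were counted by a match in any window of a gene. The heat shock element cores GAANNTTC and TTCNNGAA, searched because HSP47 is a heat shock protein, were in 7.86% and 8.52% of all windows and had no match in the bases printed for Serpinh1. CCAAT was in 37.4% of windows and in 14 of the 36 genes (38.9%), and the AP-1 motif TGANTCA was in 7.81% of windows and in 1 of the 36. These matches describe the letters in the windows and not binding.

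**Figure D2:**
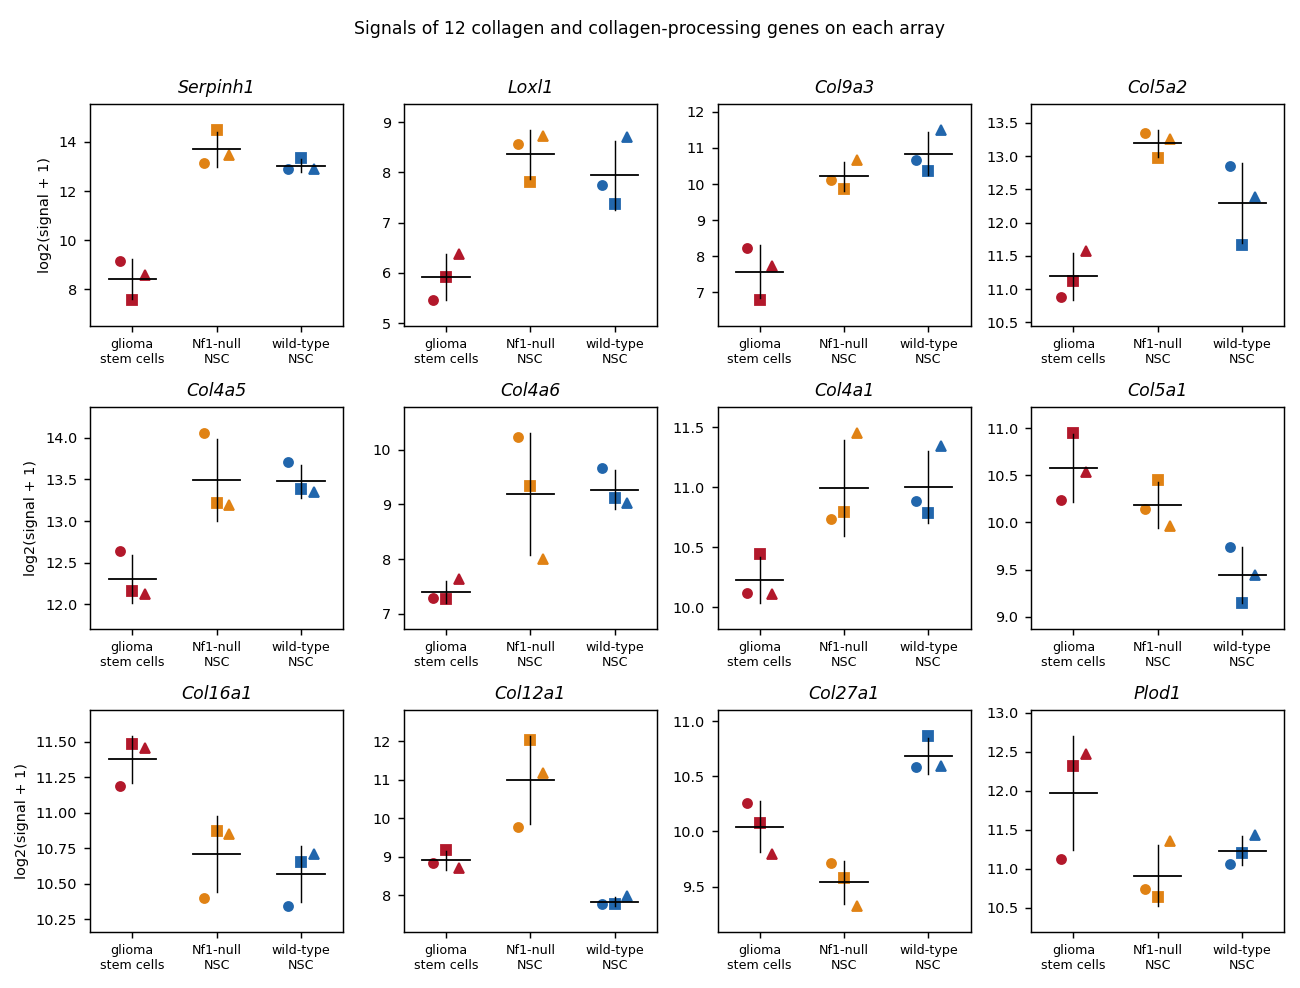
Signal of 12 genes on each of the 9 arrays, as log2(signal + 1) on an axis scaled to each gene. Circles, squares and triangles are arrays 1, 2 and 3 of a group, and the bar with its line is the mean ± SD (n = 3). Glioma stem cells lie below both NSC groups for Serpinh1, Loxl1, Col9a3, Col5a2, Col4a5, Col4a6 and Col4a1, and above both for Col16a1.

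The fibrillar collagens were represented by 11 genes, of which 1 fell against Nf1-null NSC and 1 rose against wild-type NSC. Both were chains of type V collagen, a minor fibrillar collagen that co-assembles with type I collagen and limits fibril width. Col5a2 fell against Nf1-null NSC, and Col5a1 rose against wild-type NSC. Type I and type III chains, the bulk collagens of skin, bone and vessel walls, were dim in all groups. The median difference of the 11 genes was 0.26 against Nf1-null NSC and -0.34 against wild-type NSC.

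Col5a2 had 1876.6, 2226.6 and 3060.2 signal units in glioma stem cells, against 10450.4, 7999.5 and 9828.9 in Nf1-null NSC as well as 7404.2, 3225.0 and 5345.8 in wild-type NSC. The 3 groups did not overlap, with Nf1-null NSC highest and glioma stem cells lowest. The difference was -2.00 against Nf1-null NSC (SE 0.33, adjusted p = 0.0358) and -1.11 against wild-type NSC (SE 0.33, adjusted p = 0.0774). The other probe set of Col5a2 gave -2.39 and -2.09. The call against Nf1-null NSC was lost in 6 of the 9 fits without 1 array, held without glioma stem cell array 1 and without wild-type arrays 1 or 2, and reached an adjusted p of 0.13 at most. It was also lost with the replicate number as a block (adjusted p = 0.0552) and in the fit of the 6 arrays compared (adjusted p = 0.0623).

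Col5a1 had 1205.2, 1977.7 and 1486.4 in glioma stem cells, 1129.7, 1396.0 and 994.2 in Nf1-null NSC, against 850.6, 564.6 and 695.5 in wild-type NSC. Glioma stem cells were above all wild-type arrays and overlapped Nf1-null NSC. The difference from wild-type NSC was 1.13 (SE 0.25, adjusted p = 0.0344), or 2.20-fold. A second probe set of similar signal gave 0.93, and the dimmest, at 128.8 or less, gave 0.74. The call was lost in 6 of the 9 fits without 1 array, held without glioma stem cell array 1 and without Nf1-null arrays 2 or 3, and had an adjusted p of 0.116 at most. It was also lost with the replicate number as a block (adjusted p = 0.063), with the 6 arrays compared and with the mean of all probe sets, with an adjusted p of 0.117 at most.

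Col5a3, the remaining type V chain, had 614.6, 1425.3 and 1513.1 in glioma stem cells, 556.0, 865.8 and 569.4 in Nf1-null NSC, against 490.2, 484.9 and 461.1 in wild-type NSC. It exceeded wild-type NSC on every array by 1.20 on average, with an adjusted p of 0.0806. Glioma stem cell array 1 lay far below arrays 2 and 3 for this gene. Without it the difference of Col5a3 was 1.18 against Nf1-null NSC (adjusted p = 0.0438) and 1.62 against wild-type NSC (adjusted p = 0.0125).

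The upstream bases of Col5a1 are shown as those of a chain that rose. They lie at chr2:27886175-27886380 of GRCm38.p6 on the plus strand, and capitals mark GGGCGG, also as CCGCCC where it is on the opposite strand.
Col5a1: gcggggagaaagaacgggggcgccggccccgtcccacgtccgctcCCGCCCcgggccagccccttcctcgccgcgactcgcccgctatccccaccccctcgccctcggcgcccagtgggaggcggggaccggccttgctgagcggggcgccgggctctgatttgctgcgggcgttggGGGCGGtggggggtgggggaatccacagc
The printed bases of Col5a1 held the GC box on both strands, with no match to the other motifs searched.

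Col27a1, a fibril-forming collagen of cartilage and other tissues, had 1222.1, 1082.0 and 889.0 in glioma stem cells, 837.8, 762.8 and 639.1 in Nf1-null NSC, against 1532.8, 1870.5 and 1544.6 in wild-type NSC. All 3 groups were apart, with wild-type NSC highest and Nf1-null NSC lowest. Glioma stem cells differed from wild-type NSC by -0.64, with an adjusted p of 0.0754. Col11a1, a type XI chain that shapes thin fibrils, ranged over 1033.8 to 1666.5 in glioma stem cells, 615.1 to 1681.7 in Nf1-null NSC, against 835.3 to 2955.5 in wild-type NSC, and its groups overlapped throughout. Its NSC arrays numbered 2 were the lowest of both NSC groups.

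The remaining 6 fibrillar genes, Col1a1, Col1a2, Col2a1, Col3a1, Col11a2 and Col24a1, lay between 1.7 and 298.7 on all arrays. Col1a1, the chain that makes up most of type I collagen, had 142.6, 79.6 and 89.4 in glioma stem cells, 150.0, 100.7 and 134.4 in Nf1-null NSC, against 138.5, 8.9 and 97.8 in wild-type NSC. Col1a2 had 94.6, 85.0 and 243.5 in glioma stem cells, 128.3, 217.8 and 179.4 in Nf1-null NSC, against 106.5, 213.8 and 176.5 in wild-type NSC. Col3a1, the type III chain, had 44.3, 107.8 and 92.1 in glioma stem cells, 34.7, 80.4 and 39.7 in Nf1-null NSC, against 104.5, 127.8 and 60.3 in wild-type NSC. Col11a2, a type XI chain, had 22.5, 18.0 and 217.6 in glioma stem cells, 101.2, 214.5 and 158.3 in Nf1-null NSC, against 255.9, 185.6 and 298.7 in wild-type NSC, and without glioma stem cell array 3 its differences were -2.85 (adjusted p = 0.0385) and -3.52 (adjusted p = 0.0212). For each of these 4 chains the groups overlapped in all comparisons over the 9 arrays, and none passed, which does not show that their levels were alike. Lower RNA per cell and fewer cells that make a transcript cannot be told apart in bulk RNA.

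Of the 6 genes of type IV collagen, the network former of basement membranes, 0 passed against Nf1-null NSC and 1, Col4a5, fell against wild-type NSC. For Col4a1, Col4a2, Col4a5 and Col4a6 all glioma stem cell arrays lay below all arrays of both NSC groups, where 21.9% and 34.8% of all genes did not overlap in either direction. These 4 also had an unadjusted p under 0.05 in each comparison, as did 16.5% and 26.3% of all genes. The median difference of the 6 genes was -0.79 against Nf1-null NSC and -0.91 against wild-type NSC.

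Col4a5, an X-linked chain, had 6389.8, 4567.0 and 4453.6 in glioma stem cells, against 17058.6, 9523.2 and 9366.3 in Nf1-null NSC as well as 13372.4, 10660.0 and 10431.6 in wild-type NSC. The difference was -1.18 against Nf1-null NSC (SE 0.28, adjusted p = 0.0962) and -1.17 against wild-type NSC (SE 0.28, adjusted p = 0.0428). Its other probe set gave -1.16 and -1.14, and the NSC groups overlapped. The call against wild-type NSC was lost in 7 of the 9 fits without 1 array, held without glioma stem cell array 1 and without Nf1-null array 1, and had an adjusted p of 0.135 at most. It was also lost when arrays were shifted to the same median (adjusted p = 0.0554). With the replicate number as a block, Col4a5 passed against Nf1-null NSC as well (adjusted p = 0.0473).

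Col4a6, which joins Col4a5 in the same network, had 154.9, 153.9 and 197.7 in glioma stem cells, against 1202.8, 641.2 and 256.4 in Nf1-null NSC as well as 814.5, 552.0 and 518.6 in wild-type NSC. The groups were apart, by -1.79 against Nf1-null NSC (adjusted p = 0.144) and -1.87 against wild-type NSC (adjusted p = 0.0634). The other probe set of Col4a6 gave larger differences, of -3.19 and -2.93. Col4a5 and Col4a6 are neighbours on opposite strands of the X chromosome, with starts 1343 bases apart in the promoter table. Xist, the RNA of the inactive X, had 50410.8, 49611.3 and 39079.7 in glioma stem cells, 30974.5, 43795.6 and 385.6 in Nf1-null NSC, against 36329.6, 56641.0 and 587.7 in wild-type NSC. Xist was thus low on the arrays numbered 3 of both NSC groups, and its part in the differences of these X-linked chains was not tested.

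The upstream bases of this gene pair are shown because both chains were lower in glioma stem cells. They lie on GRCm38.p6, Col4a5 at chrX:141475169-141475369 on the plus strand and Col4a6 at chrX:141474096-141474326 on the minus strand. Capitals mark CCAAT and the heat shock element core GAANNTTC.
Col4a5: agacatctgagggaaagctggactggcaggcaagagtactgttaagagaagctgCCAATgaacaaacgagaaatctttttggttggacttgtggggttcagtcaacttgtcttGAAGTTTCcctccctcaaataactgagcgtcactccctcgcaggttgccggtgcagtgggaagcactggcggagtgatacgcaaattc
Col4a6: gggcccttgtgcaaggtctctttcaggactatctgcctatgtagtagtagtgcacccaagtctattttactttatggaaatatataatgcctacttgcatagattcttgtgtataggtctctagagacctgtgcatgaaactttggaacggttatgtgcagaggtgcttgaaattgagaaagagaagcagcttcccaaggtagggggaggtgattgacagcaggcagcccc
The bases of Col4a5 held 1 CCAAT and 1 GAANNTTC, a core found in 2 of the 36 genes with a window, and those of Col4a6 held none of the motifs searched.

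Col4a1 and Col4a2, the chains of the most widespread type IV molecule, are also paired head to head. Their starts in the promoter table are 21 bases apart, placed so that their first bases overlap and leave no gap. Col4a1 had 1112.2, 1394.1 and 1102.8 in glioma stem cells, 1699.0, 1769.0 and 2802.4 in Nf1-null NSC, against 1887.1, 1761.5 and 2596.1 in wild-type NSC. Col4a2 had 534.9, 445.6 and 365.4 in glioma stem cells, 613.9, 723.3 and 1046.4 in Nf1-null NSC, against 585.9, 652.1 and 751.1 in wild-type NSC. Both chains were lower on every glioma stem cell array, with differences of -0.77 and -0.78 for Col4a1 and of -0.80 and -0.57 for Col4a2, and the adjusted p-values lay between 0.0992 and 0.192. Col4a3 and Col4a4, the chains of kidney and other specialised basement membranes, lay between 9.0 and 143.3 on all arrays, with overlapping groups.

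Collagens that decorate fibrils without forming them (FACIT and related collagens) moved in both directions. Of 9 such genes, 1, Col9a3, fell in both comparisons and 1, Col16a1, rose against wild-type NSC. Their median difference was -0.22 against Nf1-null NSC and -0.47 against wild-type NSC.

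Col9a3, a type IX chain known from the surface of cartilage fibrils, had 296.7, 109.5 and 212.3 in glioma stem cells, against 1108.7, 928.8 and 1617.1 in Nf1-null NSC as well as 1613.3, 1321.6 and 2906.5 in wild-type NSC. Glioma stem cells were below every NSC array, and the NSC groups overlapped. The difference was -2.63 against Nf1-null NSC (SE 0.44, adjusted p = 0.0376) and -3.26 against wild-type NSC (SE 0.44, adjusted p = 0.0116), or 6.20-fold and 9.60-fold lower. A second probe set gave -2.94 and -3.69, and the dimmest, at 193.0 or less, gave -0.52 and -0.48. The call against wild-type NSC held without any 1 array and in the 10 other settings run. The call against Nf1-null NSC was lost in 7 of the 9 fits without 1 array, held without glioma stem cell array 1 and without wild-type array 3, and had an adjusted p of 0.116 at most there. It was also lost with the mean of all probe sets and with the 6 arrays compared, with an adjusted p of 0.135 at most.

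Col9a1, whose product joins Col9a3 in type IX collagen, had 353.7, 666.6 and 988.9 in glioma stem cells, 376.8, 282.3 and 602.1 in Nf1-null NSC, against 1201.1, 1097.7 and 2584.8 in wild-type NSC. Unlike those of Col9a3, its glioma stem cell arrays overlapped Nf1-null NSC, and both groups lay below wild-type NSC. The difference from wild-type NSC was -1.29 (adjusted p = 0.148). Col9a2, the remaining type IX chain, lay between 4.5 and 115.4 on all arrays.

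Col16a1, a collagen found near fibrils and cell surfaces, had 2334.4, 2871.9 and 2816.2 in glioma stem cells, 1348.8, 1873.8 and 1849.9 in Nf1-null NSC, against 1298.4, 1611.8 and 1675.0 in wild-type NSC. It was higher on every glioma stem cell array than on any NSC array. The difference was 0.67 against Nf1-null NSC (SE 0.20, adjusted p = 0.15) and 0.81 against wild-type NSC (SE 0.20, adjusted p = 0.0443), or 1.75-fold. The gene has 1 probe set. The call was lost in 7 of the 9 fits without 1 array, held without glioma stem cell array 1 and without Nf1-null array 1, and had an adjusted p of 0.142 at most. It was also lost with the mean of all probe sets and with the 6 arrays compared, with an adjusted p of 0.0615 at most.

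The upstream bases of Col16a1 are shown as those of the other chain that rose. They lie at chr4:130047590-130047816 of GRCm38.p6 on the plus strand, and capitals mark GGGCGG and CCAAT.
Col16a1: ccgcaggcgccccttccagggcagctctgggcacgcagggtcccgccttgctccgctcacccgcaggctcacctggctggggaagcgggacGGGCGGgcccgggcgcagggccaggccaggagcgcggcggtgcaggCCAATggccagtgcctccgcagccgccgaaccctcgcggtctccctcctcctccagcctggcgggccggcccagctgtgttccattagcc
The bases of Col16a1 held 1 match to each of these motifs.

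Col19a1, a rare collagen of basement membrane zones, had 110.8, 425.9 and 430.2 in glioma stem cells, 105.6, 39.2 and 142.9 in Nf1-null NSC, against 89.2, 71.3 and 81.9 in wild-type NSC. It exceeded wild-type NSC on all arrays by 1.75 on average (adjusted p = 0.127), and its other probe sets gave 3.13 and 0.57. Without glioma stem cell array 1, which was again the lowest of its group, the difference from wild-type NSC was 2.40 (adjusted p = 0.036). Col12a1, a FACIT collagen of stressed connective tissue, had 457.6, 577.6 and 418.2 in glioma stem cells, 869.1, 4214.7 and 2308.8 in Nf1-null NSC, against 218.4, 216.8 and 250.6 in wild-type NSC. Its glioma stem cell arrays lay between the NSC groups without overlap, at -2.08 from Nf1-null NSC (adjusted p = 0.102) and 1.07 from wild-type NSC (adjusted p = 0.228). Col14a1, Col20a1 and Col22a1 stayed at 441.6 or less on all arrays, and none passed the threshold.

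Chains of other collagen families were mostly dim. The 6 genes of type VI and VII collagen, which form beaded filaments and anchoring fibrils, lay between 2.5 and 471.7 on all arrays. Col6a1 had 72.7, 172.0 and 107.0 in glioma stem cells, 144.5, 207.0 and 64.4 in Nf1-null NSC, against 32.6, 198.3 and 136.0 in wild-type NSC, with overlapping groups. Col6a3 had 181.3, 131.0 and 239.9 in glioma stem cells, 129.4, 178.3 and 198.2 in Nf1-null NSC, against 270.3, 322.2 and 444.9 in wild-type NSC. Wild-type NSC were above the other groups on every array for Col6a3, with a difference of -0.92 for glioma stem cells (adjusted p = 0.0975).

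The short-chain network genes Col8a1, Col8a2 and Col10a1 lay between 6.8 and 153.3. Col10a1, the collagen of hypertrophic cartilage, was at 25.5 or less on every array and gave a difference of -1.10 from wild-type NSC in glioma stem cells (adjusted p = 0.0513), and passed with quantile normalisation (adjusted p = 0.0451) and with the replicate block (adjusted p = 0.0413). The transmembrane collagens Col13a1, Col17a1, Col23a1 and Col25a1 lay between 4.3 and 435.5, and Col26a1 between 149.3 and 435.8. None of these genes passed in any comparison, while Col13a1 differed from wild-type NSC by -1.68 without glioma stem cell array 1 (adjusted p = 0.0471). Col18a1, a multiplexin of basement membranes and the source of endostatin, had 223.9, 587.4 and 495.6 in glioma stem cells, 506.0, 775.7 and 527.5 in Nf1-null NSC, against 69.0, 237.3 and 339.5 in wild-type NSC. Its glioma stem cells overlapped both NSC groups, and its relative Col15a1 lay between 19.7 and 106.8.

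The lysyl hydroxylases, which modify lysines that later carry crosslinks and sugars, gave 0 calls among 3 genes in every comparison. Plod1, which acts on lysines of the helix, had 2238.6, 5110.3 and 5652.8 in glioma stem cells, 1711.0, 1584.5 and 2615.1 in Nf1-null NSC, against 2129.8, 2356.3 and 2763.3 in wild-type NSC. Arrays 2 and 3 of the glioma stem cells were above all NSC arrays, and array 1 was within their range. Over all 3 arrays the difference was 1.06 against Nf1-null NSC (adjusted p = 0.218) and 0.74 against wild-type NSC (adjusted p = 0.257). Without glioma stem cell array 1 these became 1.48 (adjusted p = 0.0336) and 1.16 (adjusted p = 0.0406). Plod2, the hydroxylase of the telopeptides, had 4680.2, 4112.8 and 3917.5 in glioma stem cells, 5448.3, 9480.8 and 6953.1 in Nf1-null NSC, against 2417.9, 2881.7 and 5171.8 in wild-type NSC. For Plod2 the glioma stem cells lay below Nf1-null NSC, with a difference of -0.75 (adjusted p = 0.301), and overlapped wild-type NSC. Plod3, which also adds sugars to hydroxylysine, stayed between 1509.1 and 2217.8 on all 9 arrays.

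Of the lysyl oxidases, Loxl1 fell in both comparisons and Lox did not pass in either. Loxl1, best known for crosslinking elastin, had 42.9, 59.6 and 81.4 in glioma stem cells, against 376.4, 222.6 and 419.2 in Nf1-null NSC as well as 212.7, 163.6 and 417.8 in wild-type NSC. Glioma stem cells were below every NSC array and all 9 arrays were at 419.2 or less. The difference was -2.45 against Nf1-null NSC (SE 0.42, adjusted p = 0.0391) and -2.02 against wild-type NSC (SE 0.42, adjusted p = 0.0307). A dimmer probe set of Loxl1, at 27.7 or less, gave -0.26 and -0.96. The call against Nf1-null NSC held in 1 of the 9 fits without an array, that without wild-type array 3, and had an adjusted p of 0.14 at most. It was also lost with the mean of all probe sets and with the 6 arrays compared, with an adjusted p of 0.0915 at most. The call against wild-type NSC held without any 1 of the Nf1-null arrays and was lost without any 1 array of either group compared, with an adjusted p of 0.0997 at most, and was lost with the 6 arrays compared (adjusted p = 0.0571).

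Lox, the founding crosslinking oxidase, had 174.3, 131.1 and 213.5 in glioma stem cells, 63.9, 227.0 and 119.8 in Nf1-null NSC, against 188.1, 239.4 and 263.0 in wild-type NSC, and its groups overlapped.

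**Figure D3:**
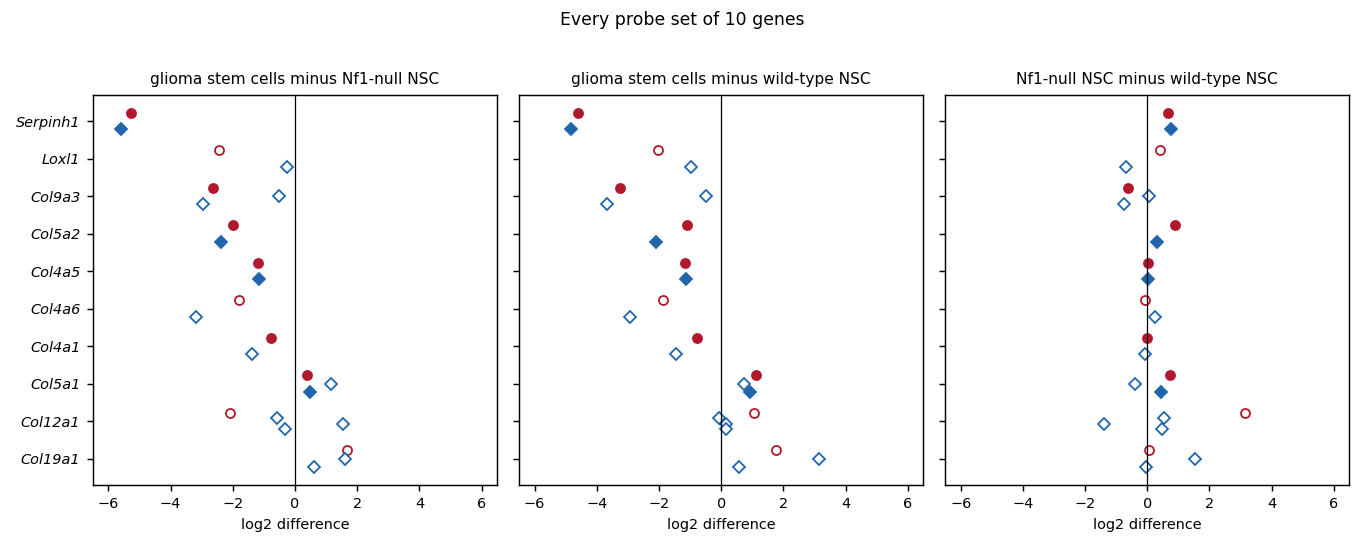
Log2 difference given by each probe set of 10 genes, with the probe set used as a red circle and every other as a blue diamond. Open symbols lie below the median gene's mean signal. All probe sets of Serpinh1, Col5a2, Col4a5, Col4a6 and Col4a1 lie left of 0 in both comparisons of glioma stem cells, while those of Col12a1 fall on both sides of 0 in all 3 comparisons.

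Between Nf1-null and wild-type NSC, limma called 0 of the 48 genes and 0 of 18193 genes (0%), against 9 of the 48 and 3048 of all genes (16.8%) at an unadjusted p under 0.05. The groups did not overlap for 13 of the 48 genes, 8 higher and 5 lower in Nf1-null NSC, against 23.8% of all genes. The same count was 13 of 48 in glioma stem cells against Nf1-null NSC, where it was 21.9% of all genes. Against wild-type NSC it was 18 of 48, with 34.8% of all genes. The shares of 27.1% and 37.5% among the 48 genes thus lay near those of the whole array, but 34 of the 48 are dim. For the 14 brighter genes they were 57.1% against Nf1-null NSC, 71.4% against wild-type NSC and 50% between the NSC groups. All genes at or above the median gene gave 27.1%, 47.3% and 31.9%. Here too Serpinh1 and Col9a3 counted as brighter only through their NSC signals. The 34 dimmer genes of the 48 gave 14.7%, 23.5% and 17.6%, beside 21.9%, 34.8% and 23.8% of all genes, bright and dim together. No share was taken over all genes below the median gene, so these have no like background. The median difference of the 48 genes between Nf1-null and wild-type NSC was -0.22, and that of all genes -0.06.

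Col12a1, Col9a1 and Col18a1 had the largest differences between the NSC groups among the 48 genes. Col12a1 was higher on all Nf1-null arrays, by 3.15 (SE 0.51, adjusted p = 0.0825), with Nf1-null array 2 at 4214.7 and array 1 at 869.1. Its 3 other probe sets gave 0.54, -1.39 and 0.48. Col27a1 was lower on all Nf1-null arrays, with a difference of -1.15 (SE 0.19, adjusted p = 0.0825), and its other probe set gave -0.80. The differences of Col9a1 and Col6a3 were -1.91 (adjusted p = 0.166) and -1.02 (adjusted p = 0.183), and those of Col18a1 and Plod2 were 1.73 (adjusted p = 0.23) and 1.11 (adjusted p = 0.183).

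Calls between the NSC groups depended on the filter and the variance prior. When only the genes at or above the median gene were tested, Col27a1 passed (adjusted p = 0.0154), as did 4.38% of all genes tested. With a mean-variance trend, Col12a1 and Col27a1 passed (adjusted p = 0.0226 and 0.0263), as did 1.81% of all genes. Same-numbered arrays of the NSC groups deviated together, and with the replicate number as a block over the brighter genes Col27a1 and Col9a1 passed as lower and Plod2 as higher (adjusted p = 0.0141, 0.0141 and 0.0491), as did 11.9% of the genes tested. With the block over all genes, 0 of the 48 passed.

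Other genes of the collagen pathway were taken from a list of folding and modification enzymes, extracellular processing enzymes, collagen-binding proteoglycans and receptors, of which 42 were measured. Against Nf1-null NSC limma called 0 of 42, beside 1.75% of all genes, with 14 at an unadjusted p under 0.05, beside 16.5% of all genes. Against wild-type NSC 4 rose and 2 fell, beside 9.06% of all genes called, with a median difference of 0.12. The NSC groups gave 0 calls among the 42, with a median of 0.33 and with 13 at an unadjusted p under 0.05, beside 16.8% of all genes.

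The brightest genes of collagen folding did not pass in any comparison. P4hb, the protein disulfide isomerase that serves as a subunit of prolyl 4-hydroxylase, had 24614.9, 23771.4 and 24537.5 in glioma stem cells, 27601.7, 33401.2 and 32985.1 in Nf1-null NSC, against 24270.4, 25403.5 and 27391.5 in wild-type NSC. Ppib, a prolyl isomerase of the same compartment, lay between 36904.0 and 47389.1 on all 9 arrays, and the collagen-binding glycoprotein Sparc between 30263.3 and 48932.8. Crtap, a partner of prolyl 3-hydroxylase, rose against wild-type NSC by 0.89 (adjusted p = 0.0162), with 2704.8, 2957.0 and 3016.5 in glioma stem cells, 2451.8, 2890.1 and 2627.8 in Nf1-null NSC as well as 1621.6, 1615.9 and 1441.8 in wild-type NSC. The prolyl 3-hydroxylase P3h2 had 672.6, 1235.8 and 1030.2 in glioma stem cells, 661.4, 1299.6 and 362.9 in Nf1-null NSC, against 155.2, 56.9 and 277.4 in wild-type NSC, and rose by 2.80 against wild-type NSC (adjusted p = 0.04). The dim prolyl 4-hydroxylase subunit P4ha3 fell by 2.70 on the log2 scale (adjusted p = 0.0477). The calls of P3h2, P4ha3 and Crtap were lost without 7, 8 and 4 of the 9 arrays, with adjusted p-values of 0.128, 0.146 and 0.0686 at most. P3h2 was also lost with the replicate block and with the 6 arrays compared, with an adjusted p of 0.0819 at most. P4ha3 was also lost with both other normalisations, the mean of all probe sets and the 6 arrays compared, with an adjusted p of 0.106 at most.

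Pcolce, which enhances the clipping of procollagen ends by the Bmp1 protease, had 3073.6, 10696.2 and 9618.3 in glioma stem cells, 1332.8, 2570.1 and 2238.5 in Nf1-null NSC, against 359.5, 280.9 and 677.0 in wild-type NSC. The 3 groups stood apart, with glioma stem cells highest and wild-type NSC lowest. Pcolce rose by 4.05 against wild-type NSC (SE 0.55, adjusted p = 0.0116), or by 3.73 to 4.63 without any 1 array, with an adjusted p of 0.0503 without wild-type array 2. Against Nf1-null NSC the difference was 1.79 (adjusted p = 0.168), or 2.36 without glioma stem cell array 1 (adjusted p = 0.0389). Bmp1 itself lay between 3565.1 and 6794.7 on all arrays. Pcolce2, a related enhancer, had 519.3, 862.4 and 1007.2 in glioma stem cells, 239.2, 193.7 and 2338.8 in Nf1-null NSC, against 269.1, 504.6 and 4903.0 in wild-type NSC, with array 3 the highest of both NSC groups. Of the proteoglycans, Bgn (biglycan) was at 110.9 or less in glioma stem cells, 237.2 or less in Nf1-null NSC and 469.7 or more in wild-type NSC, with a difference of -2.63 from wild-type NSC (adjusted p = 0.0525).

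Among collagen receptors, the integrin chain Itga1 rose against wild-type NSC by 1.63 (adjusted p = 0.00985), with 264.1, 425.4 and 333.0 in glioma stem cells, 184.9, 208.0 and 230.7 in Nf1-null NSC as well as 99.6, 121.4 and 102.8 in wild-type NSC. Its call was lost with the mean of all its probe sets (adjusted p = 0.0858). Lair1, an inhibitory collagen receptor of immune cells, was called lower than in wild-type NSC, at -2.86 (adjusted p = 0.0228), on a probe set at 98.3 or less in glioma stem cells and 420.4 or more in wild-type NSC, and this call was lost without glioma stem cell array 3 or any 1 wild-type array, with an adjusted p of 0.075 at most. The collagen-activated kinase Ddr1 was bright on all arrays, at 18291.3 to 38911.6 in glioma stem cells, 37649.1 to 51115.8 in Nf1-null NSC, against 40840.9 to 47409.0 in wild-type NSC, and passed in no comparison. Itgb1, the partner of the collagen-binding integrin chains, had 7978.7, 14370.1 and 17241.6 in glioma stem cells, 9643.1, 12252.2 and 9882.0 in Nf1-null NSC, against 6819.3, 5779.3 and 5574.6 in wild-type NSC, with a difference of 1.06 from wild-type NSC (adjusted p = 0.0633). Adgrg1, a receptor for type III collagen in the developing cortex, differed from wild-type NSC by -1.05 (adjusted p = 0.0976).

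**Figure D4:**
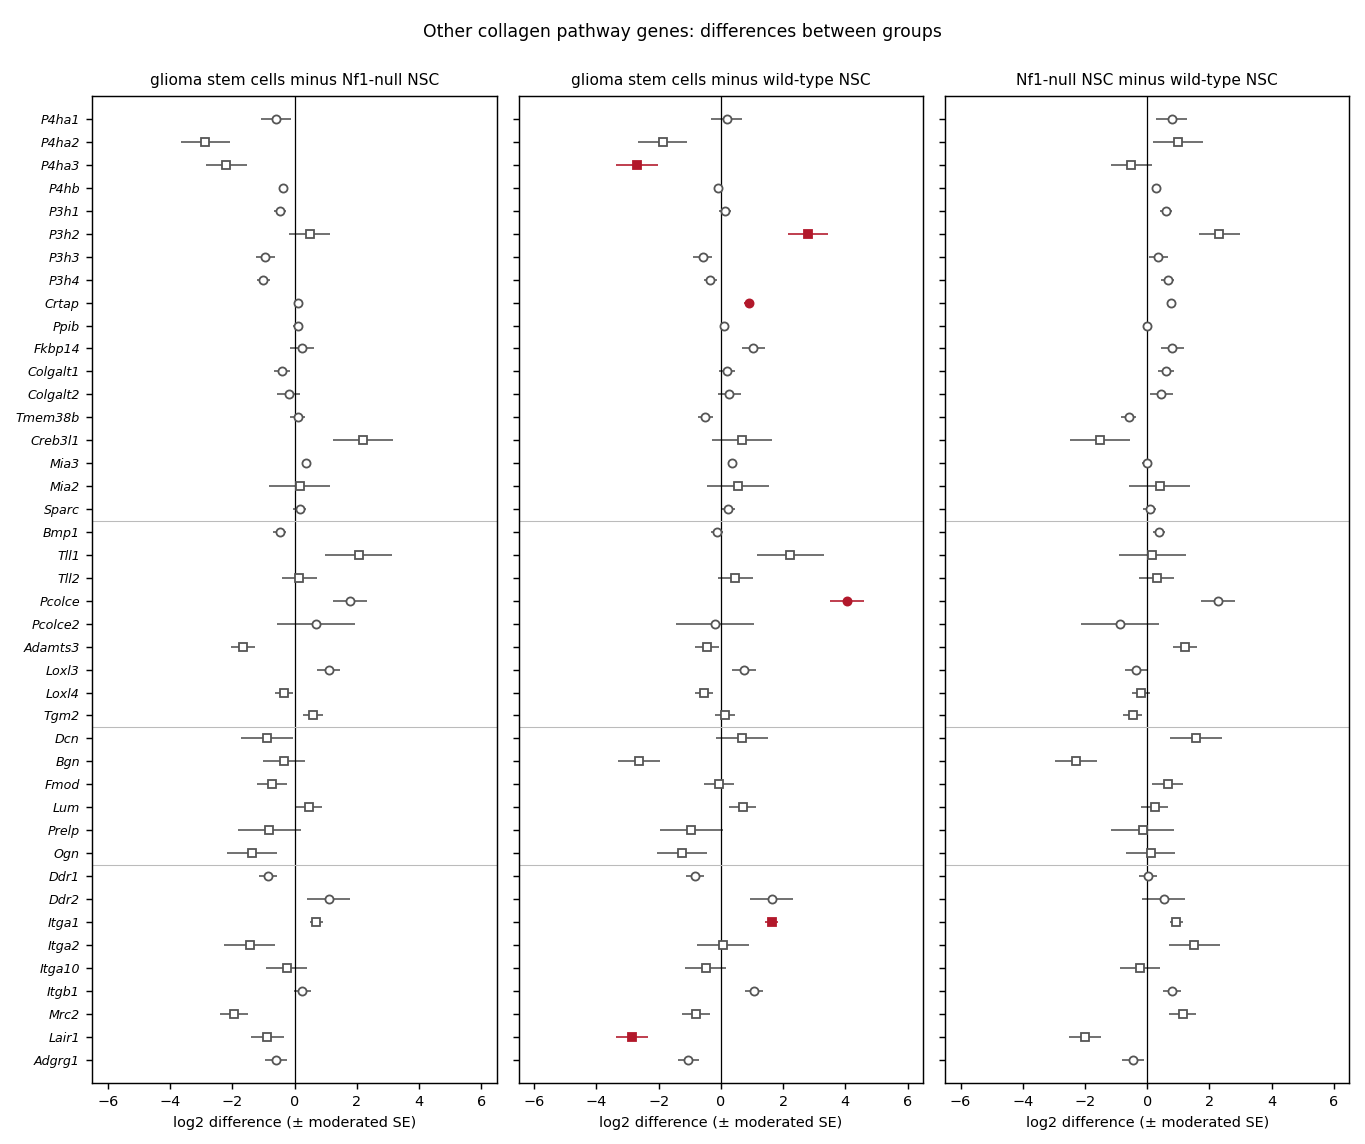
Differences of the 42 other collagen pathway genes in the 3 comparisons, as log2 of (signal + 1) with the moderated standard error. Lines separate folding and modification, extracellular processing, proteoglycans and receptors, and filled red symbols passed an adjusted p of 0.05. All 6 calls lie in the comparison of glioma stem cells with wild-type NSC, with Pcolce at 4.05.

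Markers of other cell types that make collagen moved with the groups in part. Over all genes 1.75% passed against Nf1-null NSC, 9.06% against wild-type NSC and 0% between the NSC groups, so 0 or 1 call in lists this short says little. Of 14 fibroblast and meningeal markers 0 passed in any comparison. At or above the median gene were 2 of these 14, 2 of the 11 pericyte and mural markers, and 0 endothelial or microglial ones. The summed signal of the fibroblast and meningeal list was 9041 to 16452 in glioma stem cells, 2524 to 5043 in Nf1-null NSC, against 2512 to 4961 in wild-type NSC. On the glioma stem cell arrays most of that sum came from Prrx1 and Foxd1, while Dcn and Lum were at 138.1 or less on all arrays. Of 11 pericyte and mural markers, Acta2 alone fell, by 1.89 against Nf1-null NSC and by 1.82 against wild-type NSC, and the list summed to 2831 to 4886 in glioma stem cells, 5837 to 6190 in Nf1-null NSC, against 6607 to 7374 in wild-type NSC. The defining mural marker Pdgfrb was at 68.1 or less on all arrays. Endothelial and microglial lists summed to at most 1683 and 1199 on any array, and of these the endothelial Emcn fell in both comparisons (adjusted p = 0.0298 and 0.0358). Schwann cell markers summed to 11648 to 20005 in glioma stem cells, 4556 to 10011 in Nf1-null NSC, against 2170 to 7116 in wild-type NSC, of which Cdh19 rose against wild-type NSC by 2.87 (adjusted p = 0.0131). The part of these cell types in the collagen differences was not tested. Gfap, an astrocyte marker that is also on the neural stem cell list, had 167.7, 24.4 and 52.3 in glioma stem cells, 3053.0, 200.6 and 158.5 in Nf1-null NSC, against 3291.6, 1004.2 and 923.1 in wild-type NSC.

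**Figure D5:**
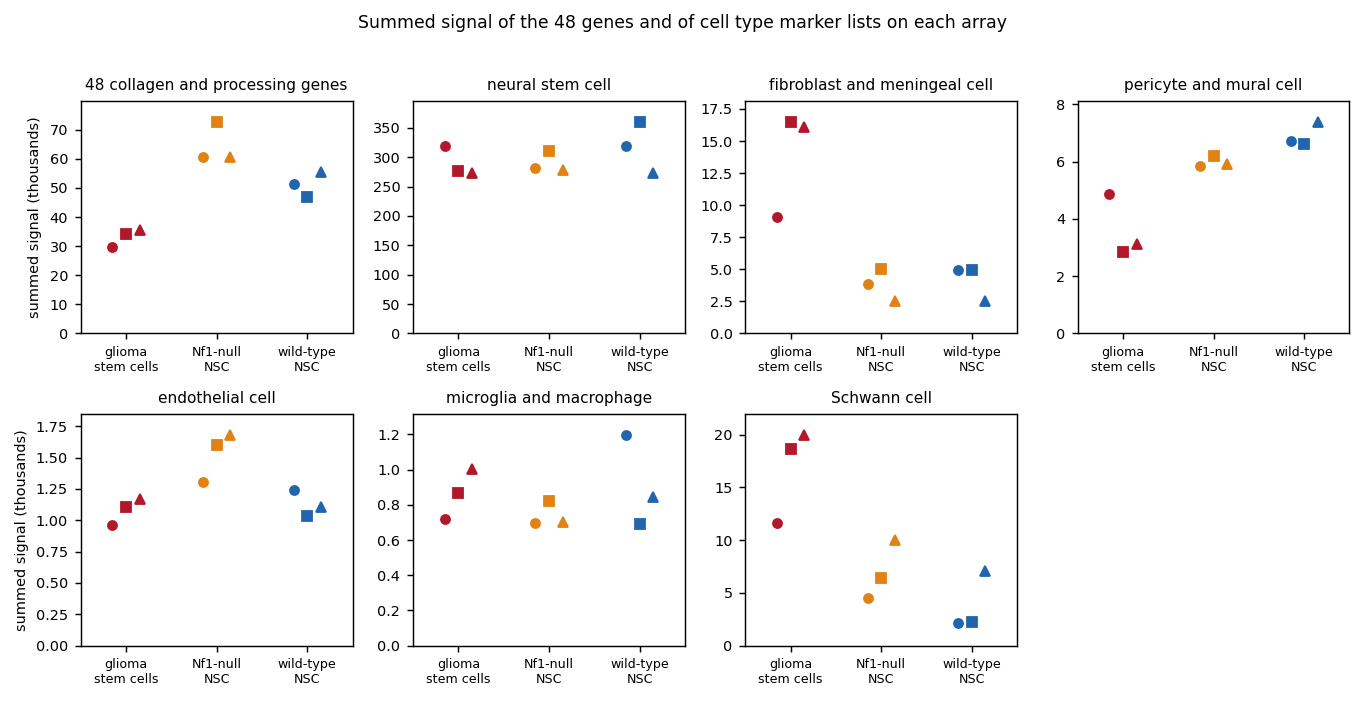
Summed signal, on axes in units of 1000, of the 48 collagen and processing genes and of 6 lists of cell type markers on each array. Circles, squares and triangles are arrays 1, 2 and 3 of a group. The 48 genes sum to 29876 to 35480 in glioma stem cells, 60804 to 72542 in Nf1-null NSC, against 46740 to 55478 in wild-type NSC. Most of this gap comes from the bright genes Serpinh1, Col4a5 and Col5a2, so it does not describe a drop shared by all 48. The sum of the neural stem cell list, which is mostly Fabp7 and Vim, overlaps between groups.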

How the data were processed

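Labelled cRNA from 9 samples, 3 per group, was hybridised to Affymetrix mouse arrays, per the labels' protocols. The values are linear signal intensities as deposited by the authors, with 1 value per probe set. For the software behind the values, no name is given in the sources used here. The 2% trimmed mean was 1500 on each array and the medians were 264.7 to 287.4, so the arrays had been scaled alike, and no further normalisation was applied. The precision is limited by the number of arrays.

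Of 45101 probe sets, 64 controls were left out, 34945 carried 1 gene symbol in the platform annotation, 932 several and 9160 none. The brightest probe set of each of 18193 genes was kept. Values as log2(signal + 1) were fitted over all 9 arrays with limma 3.58.1 (R 4.3.3, lmFit and eBayes), and p-values were adjusted by Benjamini-Hochberg over all genes. The code was tested on simulated data. Figures were drawn with matplotlib 3.10.9. An exact permutation test of 3 against 3 arrays cannot go below p = 0.1.

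The members and gene lists were chosen with earlier results of these data known. Genes were named if they passed the threshold, if their groups did not overlap and differed by 1 or more on the log2 scale (up to 10 per comparison), if they were among the 12 brightest, or if they were on a fixed list. Other genes were named after their values were seen. Same-numbered arrays of Nf1-null and wild-type NSC deviated together over the brighter genes (r = 0.64, 0.24 and 0.59). This pairing comes from the data, since the labels state none. Glioma stem cell arrays gave 0.30, 0.12 and 0.11 with same-numbered Nf1-null arrays and 0.24, 0.05 and 0.20 with wild-type arrays. Alternatives were another normalisation, pseudocount, filter, variance trend, probe set rule, the replicate block, and each array left out.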

Additional observations from a re-analysis of the deposited data

How the results depend on the processing

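Of the 48 genes, 4 passed between glioma stem cells and Nf1-null NSC, 2 with the mean of all probe sets, 0 with the 6 arrays compared, 6 with a variance trend, and 1 to 5 without 1 array. Against wild-type NSC 6 passed, 10 without the dimmest 25% of genes or with the trend, and 2 to 9 without 1 array. Between the NSC groups 0 passed, 2 without the dimmest 25%, 2 with the trend, and 0 without any 1 array. Over genes at or above the median gene 1 of the 14 tested passed. The replicate block gave 4, 6 and 0 calls, and over the brighter genes 6, 10 and 3. Over all genes the counts were 319, 1649 and 0, and with the block over the brighter genes 944, 3013 and 1081. With the mean of all probe sets the counts over all genes were 149, 1083 and 0, and without 1 array 72 to 721, 214 to 1756 and 0 to 1. With the trend they were 737, 2680 and 329, with the 6 arrays compared 29, 1030 and 0, and with the block 193, 1536 and 0. The 13645 genes left without the dimmest 25% gave 536, 2488 and 136. The 9097 brighter genes alone gave 607, 2472 and 398. The counts over all genes thus moved with the setting too. The direction turned for Col1a1 against wild-type NSC without wild-type array 2 (-0.21, against 0.98, range -0.21 to 1.70), for Itga1 between the NSC groups with the mean of probe sets (-0.14, against 0.94), and for Pcolce2 there without wild-type array 3 (0.37, against -0.87, range -2.02 to 0.37). The causes were not tested. The low signals of 34 of the 48 genes limit what could be detected.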

Other observations

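The genes next to Serpinh1, Col9a3 and Loxl1 in the RefSeq gene order did not pass the threshold in any comparison. Beside Serpinh1, Map6, which stabilises microtubules, had 277.5, 383.5 and 362.9 in glioma stem cells, 425.4, 467.2 and 467.1 in Nf1-null NSC, against 273.8, 318.3 and 475.9 in wild-type NSC. Gdpd5, a phosphodiesterase on its other side, had 982.1, 1159.7 and 978.4 in glioma stem cells, 742.9, 925.5 and 947.7 in Nf1-null NSC, against 904.3, 1108.3 and 1005.2 in wild-type NSC. Beside Col9a3, the transcription factor gene Tcfl5 had 141.4, 270.4 and 613.3 in glioma stem cells, 874.9, 1741.0 and 1746.3 in Nf1-null NSC, against 561.8, 805.4 and 1056.2 in wild-type NSC. Its difference was -2.27 against Nf1-null NSC (limma, adjusted p = 0.101) and -1.45 against wild-type NSC (adjusted p = 0.145), and its glioma stem cell arrays overlapped wild-type NSC.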
